A study of Mus musculus with 18 samples.

Results

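The genes examined were 9 regulators of upper-layer neuron identity in the mouse cerebral cortex, namely *Cux1*, *Cux2*, *Pou3f1*, *Pou3f2*, *Pou3f3*, *Rorb*, *Mef2c*, *Bhlhe22* and *Lmo4*. They were chosen by name as transcription factors and cofactors of these neurons, and each was found once, by its Ensembl identifier, among the 55153 genes of the RNA-seq table and among the 14348 genes with counts in all 9 Ribo-seq libraries. All 9 passed the filter on low counts in every comparison. RNA-seq measures the amount of each transcript, and Ribo-seq sequences the short RNA fragments that ribosomes protect and so measures transcripts being translated. Both were done on whole cortices at embryonic day 15.5 (E15.5), with 3 libraries per assay for each of 3 genotypes. Ctrl mice were wild type. *F*-cKO mice were Fto(f/f, Emx1-cre) and *M*-cKO mice were Mettl3(f/f, Emx1-cre), with the C57BL/6 strain given for all libraries, although the study's methods describe floxed lines on a mixed background. No Cre-only control was used here. *Fto* encodes an RNA demethylase that can remove N6-methyladenosine (m6A) from RNA, and *Mettl3* encodes the catalytic subunit of the methyltransferase that places it. *Emx1*-Cre acts in cortical progenitors and their excitatory neuron and glial descendants, so most interneurons, vessel cells and microglia in the dissected tissue keep the floxed genes.

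Upper-layer neurons (layers II to IV) are born late in cortical development and mostly connect cortical areas with each other, many of them across the corpus callosum. Their identity is set by transcription factors that are switched on as cells leave the cycle and that act against the programs of the earlier born deep-layer neurons. At E15.5 upper-layer neurons are being produced and many are still migrating, so these genes are measured in young neurons. Several of the 9 are also used elsewhere: *Mef2c* in microglia and endothelium, *Lmo4* and *Bhlhe22* in some deep-layer neurons, and *Pou3f2* and *Pou3f3* already in progenitors.

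The knockouts were first checked on the targeted genes. *Fto* RNA was at 10.8, 11.2 and 8.37 FPKM in Ctrl and at 3.26, 7.56 and 2.43 FPKM in *F*-cKO, where replicate 2 lay near the lowest Ctrl library. It fell by 1.21 ± 0.33 on the log2 scale (SE, 3 against 3 libraries) in *F*-cKO (edgeR's quasi-likelihood test, adjusted *P* = 0.0298), and by 1.84 ± 0.16 without replicate 2 (adjusted *P* = 0.0142 by edgeR). It did not pass with DESeq2 (adjusted *P* = 0.0693) or by edgeR without *F*-cKO replicate 1 or any 1 Ctrl library (adjusted *P* = 0.0553 to 0.0803). Without *F*-cKO replicate 2 *Pou3f1*, *Mef2c*, *Bhlhe22* and *Lmo4* were called lower in *F*-cKO RNA-seq, the same 4 of the 9 genes as with all libraries. The *Fto* Ribo-seq level averaged 3.35 RPKM in *F*-cKO and 21.8 RPKM in Ctrl, with no overlap. Its Ribo-seq log2 fold change of -2.67 ± 0.25 did not pass by edgeR (adjusted *P* = 0.350, the smallest of that comparison), but did with DESeq2 (adjusted *P* = 4.50e-16), with all 9 libraries in 1 edgeR fit (0.0139) and by edgeR without *F*-cKO replicate 2 (0.0358). *Mettl3* RNA was higher, not lower, in the libraries labelled *M*-cKO (log2 fold change 0.50 ± 0.09 by edgeR, adjusted *P* = 0.00221), while its Ribo-seq level fell by 0.55 ± 0.09 (edgeR, adjusted *P* = 0.0157). By edgeR that fall did not pass with all 9 libraries in 1 fit (adjusted *P* = 0.118) or without Ctrl replicate 1, 2 or 3 (0.0542, 0.0804 and 0.0624). Only some exons are excised in each line and the counts are summed over the whole gene, so the RNA-seq counts of *Mettl3* do not measure the excision. The total count per library was 18504094 to 22592406 in RNA-seq and 10973699 to 35853227 in Ribo-seq. Depth in Ribo-seq followed genotype: no *M*-cKO library exceeded 21725348 fragments, while the smallest Ctrl library held 30081796. The largest *F*-cKO library, at 32954317, reached the Ctrl range. Scaling adjusts for library size, but depth and genotype cannot be separated when *M*-cKO Ribo-seq is set against Ctrl. The smallest Ribo-seq library, *F*-cKO replicate 2, stood apart: the summed level of 8 endothelium genes was 130.6 RPKM in it, against 9.46 to 15.4 RPKM in Ctrl. In its counts *F*-cKO replicate 3 lay closer to Ctrl replicate 1 than to either other *F*-cKO library (chi-square per gene 20.1 against 83.9 and 369.8). Markers of cortical excitatory neurons and their progenitors (*Emx1*, *Neurod6*, *Slc17a7*, *Tbr1*) were present throughout, with summed levels of 388.4 to 416.5 FPKM in Ctrl, 453.5 to 485.4 FPKM in *F*-cKO and 462.8 to 476.7 FPKM in *M*-cKO.

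In Ctrl cortex the 9 genes spanned a wide range of RNA levels. On the FPKM scale, which divides by gene length and library size and so allows genes to be compared, *Bhlhe22* was highest at 134.9 ± 0.49 (mean ± SD, n = 3), followed by *Pou3f3* at 82.9 ± 1.00, *Lmo4* at 55.8 ± 4.72 and *Pou3f2* at 34.1 ± 1.33. *Pou3f1* (25.3 ± 1.23) and *Mef2c* (23.7 ± 5.09) overlapped in range and had no order between them. *Cux2* followed at 14.5 ± 0.86, *Cux1* at 8.05 ± 0.48 and *Rorb*, the layer IV gene, was lowest at 2.04 ± 0.16. All other neighbours in this order were separated in every Ctrl library. Counts behind these levels were 368 to 14336 reads per gene and library over all 9 RNA-seq libraries, and 118 to 23234 fragments in Ribo-seq.

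The order in Ribo-seq differed. On the RPKM scale *Pou3f3* (53.5 ± 0.09), *Mef2c* (49.5 ± 5.60), *Bhlhe22* (44.7 ± 3.25) and *Lmo4* (42.8 ± 4.06) each overlapped the next in Ctrl, and *Pou3f2* came after them at 34.1 ± 1.91. *Cux1* (11.2 ± 0.65) and *Pou3f1* (10.5 ± 1.50) overlapped, and *Cux2* (8.20 ± 0.25) and *Rorb* (4.17 ± 0.28) were lowest. The ratio of the mean Ribo-seq to the mean RNA-seq level, the translation efficiency (TE) of the study, was 2.09 for *Mef2c*, 2.05 for *Rorb* and 1.38 for *Cux1*, above the median of 0.757 over the 12952 genes with at least 1 FPKM. It was 0.331 for *Bhlhe22*, 0.414 for *Pou3f1* and 0.565 for *Cux2*, below that median, with 0.999 for *Pou3f2*, 0.767 for *Lmo4* and 0.646 for *Pou3f3*. The deposited values of both assays divide by the same gene lengths up to a constant factor, so this ratio between genes also moves with how much of a transcript is coding, and the order is a description only.

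RNA levels of most of the 9 genes were lower in one or both knockouts. Compared to Ctrl, 4 of 9 fell in *F*-cKO (*Pou3f1*, *Mef2c*, *Bhlhe22*, *Lmo4*) and 0 rose by edgeR (1, *Rorb*, at an unadjusted *P* below 0.05), where 9.57% of the 16944 genes tested were called lower and 11.5% higher at an adjusted *P* below 0.05. In *M*-cKO 6 of 9 fell (the same 4, *Pou3f2* and *Cux2*) and 0 rose by edgeR, also at an unadjusted *P* below 0.05, where 14.1% of 16968 genes were called lower and 15.5% higher. *F*-cKO gave a median log2 fold change of -0.21 over the 9 and *M*-cKO one of -0.31, and the median over all genes was -0.01 in both. The same 3 Ctrl libraries serve both comparisons. The share of all genes whose groups do not overlap was not counted in either assay. A lack of overlap therefore describes the libraries of a gene and does not set the 9 apart from other genes. In this bulk tissue, fewer upper-layer neurons and less of each transcript per neuron cannot be told apart. The plot of FPKM by library shows these levels, and the plot of fold changes sets both knockouts side by side.

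**Figure D1:**
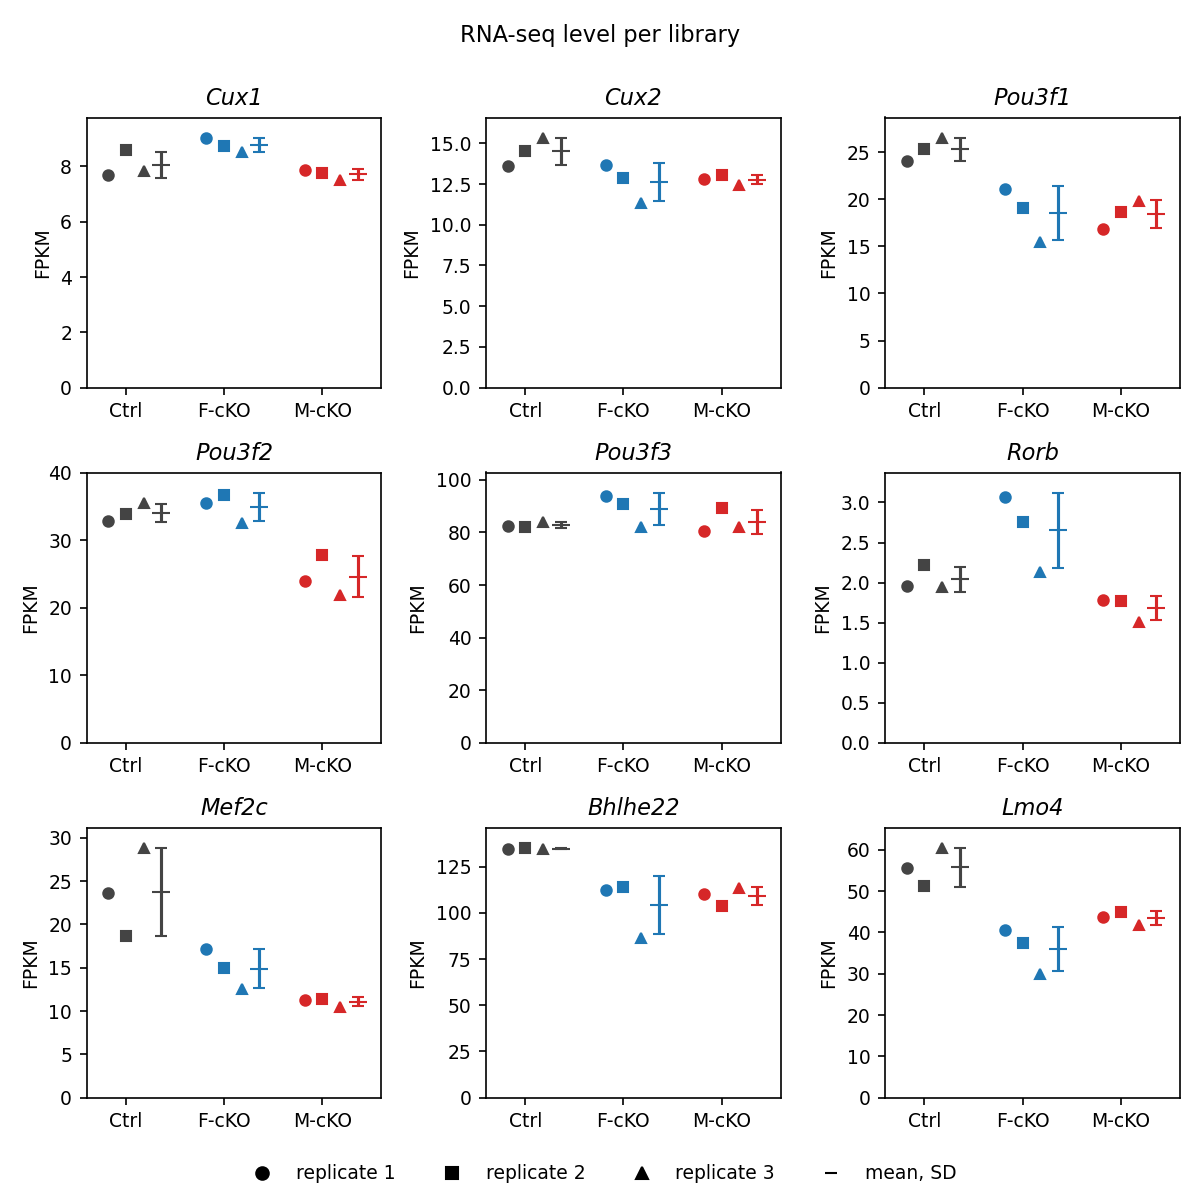
RNA-seq level (FPKM, linear axes from 0) of the 9 genes in each library of Ctrl, *F*-cKO and *M*-cKO, with the mean and SD (n = 3) to the right of each group. *Mef2c*, *Lmo4*, *Bhlhe22* and *Pou3f1* lie below all Ctrl libraries in every library of both knockouts, and *Pou3f2*, *Cux2* and *Rorb* do so in *M*-cKO, while their *F*-cKO libraries overlap Ctrl. The share of all genes that do so was not counted.

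*Mef2c* had the largest RNA change of the 9 in *M*-cKO, and in *F*-cKO its change and that of *Lmo4* differed by less than their errors. *Mef2c* encodes a MADS-box transcription factor that promotes neuronal maturation and regulates the number of excitatory synapses. Its RNA level was 23.6, 18.7 and 28.9 FPKM in the 3 Ctrl libraries, 17.1, 14.98 and 12.6 FPKM in *F*-cKO, and 11.3, 11.4 and 10.5 FPKM in *M*-cKO. Neither knockout overlapped Ctrl, and the knockouts did not overlap each other. By edgeR the log2 fold change was -0.68 ± 0.15 in *F*-cKO (adjusted *P* = 0.0135) and -1.11 ± 0.12 in *M*-cKO (adjusted *P* = 1.19e-04), and *M*-cKO was lower than *F*-cKO by a log2 fold change of -0.44 ± 0.10 (adjusted *P* = 0.00863). The mean TMM-scaled level was 0.627 times Ctrl in *F*-cKO and 0.466 times Ctrl in *M*-cKO. Microglia and endothelium also express *Mef2c*. Of 8 microglia genes (*Cx3cr1*, *P2ry12* and others) 0 were called in either knockout by edgeR (1 lower in each at an unadjusted *P* below 0.05), with summed levels of 29.9 to 37.8 FPKM in Ctrl, 23.5 to 30.7 FPKM in *F*-cKO and 27.9 to 42.8 FPKM in *M*-cKO. Of 8 endothelium genes 2 were called lower in *F*-cKO (*Cldn5* -0.63 and *Esam* -0.57) and 0 in *M*-cKO by edgeR (1 at an unadjusted *P* below 0.05), with summed levels of 70.4 to 76.6, 58.5 to 65.5 and 59.1 to 81.3 FPKM. Their part in the *Mef2c* result was not tested.

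*Lmo4*, a LIM-only cofactor of callosal neurons and of areal patterning, was the other gene whose RNA fell by more than 0.6 on the log2 scale in *F*-cKO. It was at 55.6, 51.1 and 60.6 FPKM in Ctrl, 40.5, 37.5 and 30.0 FPKM in *F*-cKO, and 43.8, 45.0 and 41.7 FPKM in *M*-cKO. All 6 knockout libraries lay below Ctrl, and unlike *Mef2c* the *F*-cKO libraries were the lowest. The log2 fold change was -0.64 ± 0.11 in *F*-cKO (edgeR, adjusted *P* = 0.00486) and -0.37 ± 0.07 in *M*-cKO (edgeR, adjusted *P* = 0.00280). The difference between both knockouts was 0.27 ± 0.09 and did not pass (edgeR, adjusted *P* = 0.0592), although it did in 4 of 11 alternatives. These were DESeq2 (adjusted *P* = 0.0247), no filter on low counts (0.00204), the replicate block (0.0425) and the fit without *F*-cKO replicate 1 (0.0177), and the log2 fold change lay between 0.16 and 0.36 over the 11.

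The region before the transcription start is shown for *Mef2c* and *Lmo4*, to give the sequence context of genes whose RNA fell in both knockouts. RefSeq (GRCm38.p6) gave promoter sequence for 7 of the 9 genes, and *Pou3f1* and *Bhlhe22*, the others that fell in both, had no entry. Each line holds the 250 bases before a start site, 5′ to 3′ on the strand of the gene, the site being the farthest upstream of the 3 in the promoter table for each gene. The gene record of *Mef2c* begins at 83504017, inside its window, so the last bases of that line belong to the gene. Which start is used in these cortices was not measured. Capitals mark E-boxes (CANNTG, its own reverse complement), the element bound by basic helix-loop-helix factors such as Bhlhe22 and the neurogenins.
*Mef2c*, chr13:83503784-83504033, plus strand: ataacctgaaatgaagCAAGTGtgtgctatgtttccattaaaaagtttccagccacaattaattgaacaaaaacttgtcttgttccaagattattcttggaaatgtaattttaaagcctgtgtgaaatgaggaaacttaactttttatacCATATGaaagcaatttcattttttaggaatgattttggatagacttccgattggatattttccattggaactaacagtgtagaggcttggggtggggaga
*Lmo4*, chr3:144205256-144205505, minus strand: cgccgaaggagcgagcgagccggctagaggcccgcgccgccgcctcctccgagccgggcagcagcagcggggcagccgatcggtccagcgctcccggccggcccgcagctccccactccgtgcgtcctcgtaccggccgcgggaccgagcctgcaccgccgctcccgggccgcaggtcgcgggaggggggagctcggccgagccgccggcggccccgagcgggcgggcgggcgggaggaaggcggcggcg
The *Mef2c* window held 2 E-boxes and the *Lmo4* window 0, and 66.2% of 32851 windows of the same length in the RefSeq table hold at least 1. The octamer ATGCAAAT, bound by POU factors, was searched on both strands and was in none of the 7 windows (1.60% of all windows hold it). Base composition differed widely, with 33.6% G and C in the *Mef2c* window and 82.4% in the *Lmo4* window.

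*Bhlhe22* encodes a basic helix-loop-helix repressor that shapes areal identity and the axons of cortical neurons. Its RNA was at 134.7, 135.4 and 134.5 FPKM in Ctrl, at 112.6, 114.0 and 86.5 FPKM in *F*-cKO, and at 110.2, 103.9 and 113.7 FPKM in *M*-cKO. Both knockouts lay below Ctrl and overlapped each other. The log2 fold change was -0.38 ± 0.10 in *F*-cKO (edgeR, adjusted *P* = 0.0218) and -0.31 ± 0.06 in *M*-cKO (edgeR, adjusted *P* = 0.00222). The call in *F*-cKO was lost without any 1 of the 3 Ctrl libraries, with adjusted *P* of 0.0595, 0.0556 and 0.0653 by edgeR without replicates 1, 2 and 3.

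The POU class III genes encode closely related homeodomain factors and did not move together. *Pou3f2* (Brn2) and *Pou3f3* (Brn1) act jointly in the production and migration of upper-layer neurons, and *Pou3f1* (Oct6) marks subsets of cortical projection neurons. *Pou3f1* was at 24.1, 25.3 and 26.5 FPKM in Ctrl, 21.1, 19.0 and 15.4 FPKM in *F*-cKO and 16.8, 18.6 and 19.8 FPKM in *M*-cKO, with every knockout library below Ctrl. Its log2 fold change was -0.46 ± 0.10 in *F*-cKO (edgeR, adjusted *P* = 0.0137, and 0.0524 without Ctrl replicate 3) and -0.47 ± 0.07 in *M*-cKO (edgeR, adjusted *P* = 9.82e-04).

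*Pou3f2* fell in *M*-cKO alone among the comparisons with Ctrl. Its level was 32.9, 33.9 and 35.5 FPKM in Ctrl, 35.6, 36.7 and 32.6 FPKM in *F*-cKO, and 24.0, 27.9 and 22.0 FPKM in *M*-cKO. The *M*-cKO libraries lay below all others, and *F*-cKO overlapped Ctrl. The log2 fold change was 0.03 ± 0.06 in *F*-cKO (edgeR, adjusted *P* = 0.814) and -0.48 ± 0.08 in *M*-cKO (edgeR, adjusted *P* = 0.00158), and *M*-cKO set against *F*-cKO gave -0.52 ± 0.09 (edgeR, adjusted *P* = 0.00244).

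*Pou3f3* did not pass in either knockout. It was at 82.6, 82.0 and 84.0 FPKM in Ctrl, 94.0, 90.9 and 82.1 FPKM in *F*-cKO, and 80.6, 89.2 and 82.1 FPKM in *M*-cKO, with overlapping groups and log2 fold changes of 0.09 ± 0.06 and 0.01 ± 0.06 (edgeR, adjusted *P* = 0.331 and 0.911). The gene model of the long non-coding RNA *Gm46091* spans *Pou3f3*, and the library kit named in the labels is not stated to keep strand, so reads of both cannot be told apart. *Pou3f4*, the fourth gene of the class and no upper-layer gene, is used mainly in ventral and subcortical progenitors and neurons. It was at 3.51, 2.98 and 3.16 FPKM in Ctrl, 7.35, 5.34 and 4.90 FPKM in *F*-cKO and 6.74, 8.49 and 5.13 FPKM in *M*-cKO, above Ctrl in all 6 knockout libraries (log2 fold change 0.86 ± 0.16, adjusted *P* = 0.00742, and 1.07 ± 0.17, adjusted *P* = 8.87e-04, edgeR).

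The Cux genes encode CUT homeodomain factors that control dendrite branching and synapses of layer II to IV neurons, and their RNA changed little. *Cux2* was at 13.6, 14.5 and 15.3 FPKM in Ctrl, 13.7, 12.9 and 11.4 FPKM in *F*-cKO and 12.8, 13.0 and 12.5 FPKM in *M*-cKO. Only *M*-cKO lay wholly below Ctrl, by a log2 fold change of -0.19 ± 0.06 (edgeR, adjusted *P* = 0.0393). *F*-cKO overlapped Ctrl at -0.21 ± 0.08 (edgeR, adjusted *P* = 0.0851) and was called lower in 2 of 11 alternatives. The 2 values are of like size, the direct comparison gave 0.01 ± 0.07 (edgeR, adjusted *P* = 0.956), and the call in *M*-cKO held in 3 of 11 alternatives only. It was lost without Ctrl replicates 2 or 3 or any *M*-cKO replicate (adjusted *P* of 0.0921, 0.162, 0.115, 0.0770 and 0.0946 by edgeR).

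*Cux1* was at 7.70, 8.61 and 7.85 FPKM in Ctrl, 9.05, 8.75 and 8.53 FPKM in *F*-cKO and 7.87, 7.78 and 7.50 FPKM in *M*-cKO. Neither knockout passed against Ctrl (log2 fold changes 0.11 ± 0.06 and -0.07 ± 0.06, adjusted *P* = 0.224 and 0.429 by edgeR). The knockouts did not overlap each other, and *M*-cKO was lower than *F*-cKO by a log2 fold change of -0.19 ± 0.06 (edgeR, adjusted *P* = 0.0299), a call that held in 4 of 11 alternatives and was lost without *F*-cKO replicates 1 or 2 or any *M*-cKO replicate (adjusted *P* of 0.0965, 0.108, 0.0926, 0.0825 and 0.0783 by edgeR). The *Cux1* locus also gives rise to the Golgi protein CASP through alternative splicing, which counts per gene do not separate.

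*Rorb*, a nuclear receptor that specifies layer IV neurons, moved apart in the knockouts. Its RNA was at 1.95, 2.22 and 1.94 FPKM in Ctrl, 3.06, 2.76 and 2.14 FPKM in *F*-cKO, and 1.78, 1.77 and 1.50 FPKM in *M*-cKO. *F*-cKO overlapped Ctrl in its lowest library, and *M*-cKO lay below both other groups. Neither comparison with Ctrl passed (0.37 ± 0.13 with adjusted *P* = 0.0707 in *F*-cKO and -0.29 ± 0.10 with adjusted *P* = 0.0540 in *M*-cKO, edgeR), although *F*-cKO did with DESeq2 (adjusted *P* = 0.0381). Between the knockouts the log2 fold change was -0.66 ± 0.13 (edgeR, adjusted *P* = 0.00482), the largest difference among the 9 genes. Of 16802 genes in that comparison 14.3% were called lower and 13.1% higher in *M*-cKO, and of the 9 genes 4 were lower (*Rorb*, *Pou3f2*, *Mef2c*, *Cux1*) and 0 higher by edgeR (1, *Lmo4*, at an unadjusted *P* below 0.05).

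**Figure D2:**
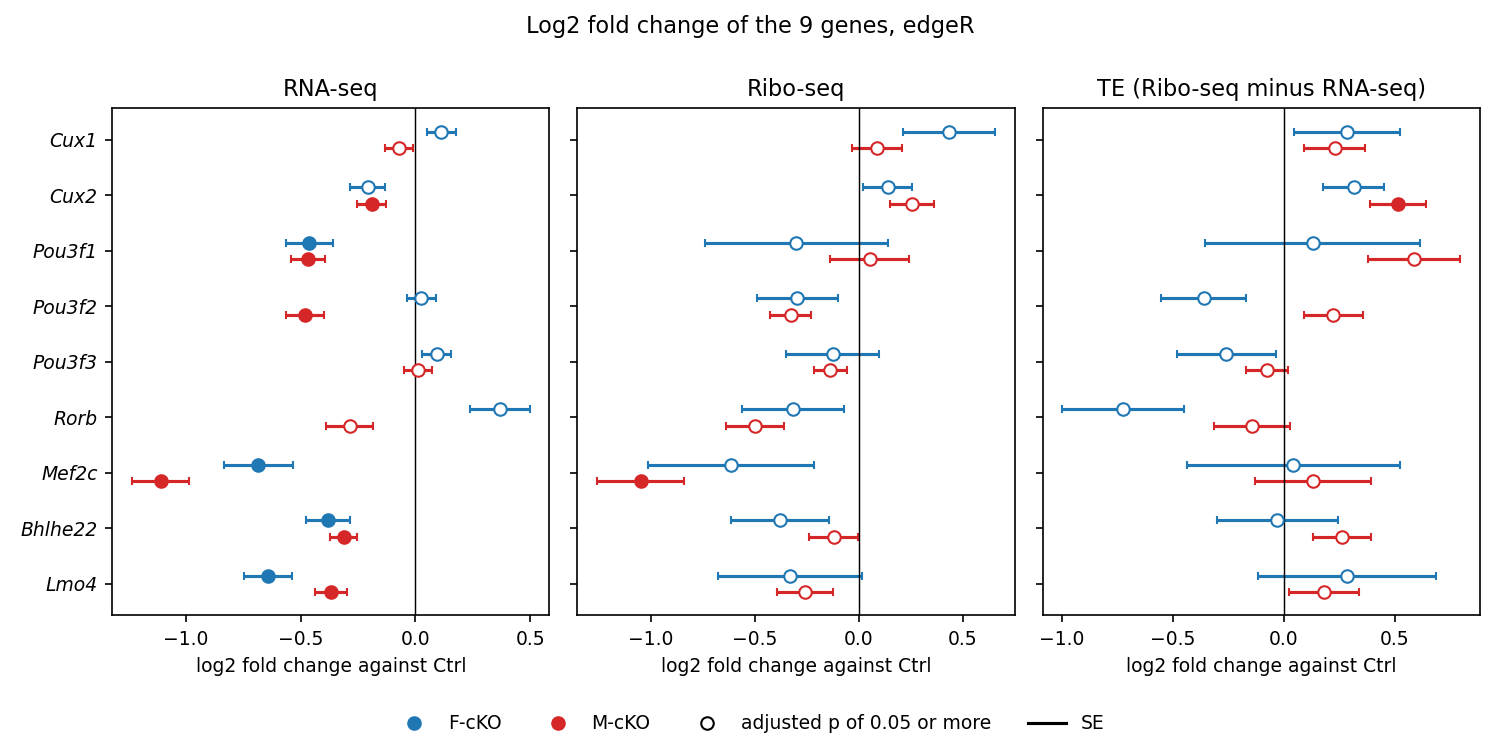
Log2 fold change against Ctrl (x axis) of the 9 genes in RNA-seq, Ribo-seq and TE, for *F*-cKO and *M*-cKO, with horizontal bars for the SE and filled points where the adjusted *P* was below 0.05. RNA points are filled for 4 genes of *F*-cKO and for 6 of *M*-cKO, Ribo-seq for *Mef2c* in *M*-cKO, and TE for *Cux2* in *M*-cKO.

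In Ribo-seq, *Mef2c* was the one gene of the 9 that passed against Ctrl. Its level was 49.7, 43.8 and 55.0 RPKM in Ctrl and 18.9, 19.9 and 32.7 RPKM in *M*-cKO, without overlap, and the log2 fold change was -1.05 ± 0.21 (edgeR, adjusted *P* = 0.0212), close to that of its RNA. Of 14314 genes in this comparison 7.50% were called lower and 7.13% higher. Every *M*-cKO library was smaller than every Ctrl library here, and the part of depth in the *Mef2c* call was not tested. The call held in 6 of 12 alternatives. It was lost with all 9 libraries in 1 edgeR fit (adjusted *P* = 0.223). Without any 1 Ctrl replicate or without *M*-cKO replicates 1 or 2 it was lost as well (adjusted *P* of 0.0724, 0.0723, 0.0760, 0.0590 and 0.0509 by edgeR), with log2 fold changes between -1.13 and -0.88 in these fits with a library left out.

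*Rorb* (4.05, 3.98 and 4.50 RPKM in Ctrl, 2.97, 2.34 and 3.49 RPKM in *M*-cKO) and *Pou3f2* (32.1, 35.9 and 34.2 RPKM in Ctrl, 29.7, 26.3 and 24.8 RPKM in *M*-cKO) also lay below Ctrl in every *M*-cKO library and came near the threshold, at -0.50 ± 0.14 (adjusted *P* = 0.0511) and -0.33 ± 0.10 (adjusted *P* = 0.0610) by edgeR. DESeq2 gave adjusted *P* of 0.0171 and 0.0312 for these genes. *Pou3f3* also lay below Ctrl in every *M*-cKO library (53.5, 53.5 and 53.6 RPKM against 51.2, 45.9 and 47.9 RPKM) but did not pass (edgeR, adjusted *P* = 0.254). *Pou3f1*, *Bhlhe22* and *Lmo4*, whose RNA fell in *M*-cKO, had Ribo-seq log2 fold changes of 0.05 ± 0.19, -0.12 ± 0.12 and -0.26 ± 0.14 and overlapped Ctrl (adjusted *P* = 0.869, 0.500 and 0.222 by edgeR).

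In *F*-cKO Ribo-seq none of the 9 genes was called against Ctrl, by edgeR or in any of the 12 alternatives. Of 14335 genes 0% passed by edgeR, with 318 at an unadjusted *P* below 0.05, and DESeq2 called 5 higher and 1 lower. The adjusted *P* of the 9 genes lay between 0.730 and 0.840. *Mef2c* was at 27.9, 14.98 and 53.0 RPKM in *F*-cKO, a spread that overlaps the Ctrl range, and *Lmo4* was at 33.7, 16.2 and 51.0 RPKM. For every gene except *Cux1* and *Cux2*, replicate 2 was the lowest *F*-cKO library by a wide margin, as the plot of RPKM by library shows; for *Cux1* it was the highest. With all libraries the 9 log2 fold changes lay between -0.61 ± 0.40 (*Mef2c*) and 0.43 ± 0.22 (*Cux1*). Without replicate 2 they lay between -0.31 (*Mef2c*) and 0.21 (*Cux1*), and *Pou3f1* and *Pou3f3* changed sign, from -0.30 and -0.13 to 0.07 each. Over all 12 alternatives *Mef2c* ranged from -1.13 to -0.31. With all libraries the SE of *Mef2c* was 0.40 on the log2 scale, against 0.21 in *M*-cKO. Its estimate (-0.61) lay near that of its RNA (-0.68) and did not pass, so this comparison could miss a change of that size.

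**Figure D3:**
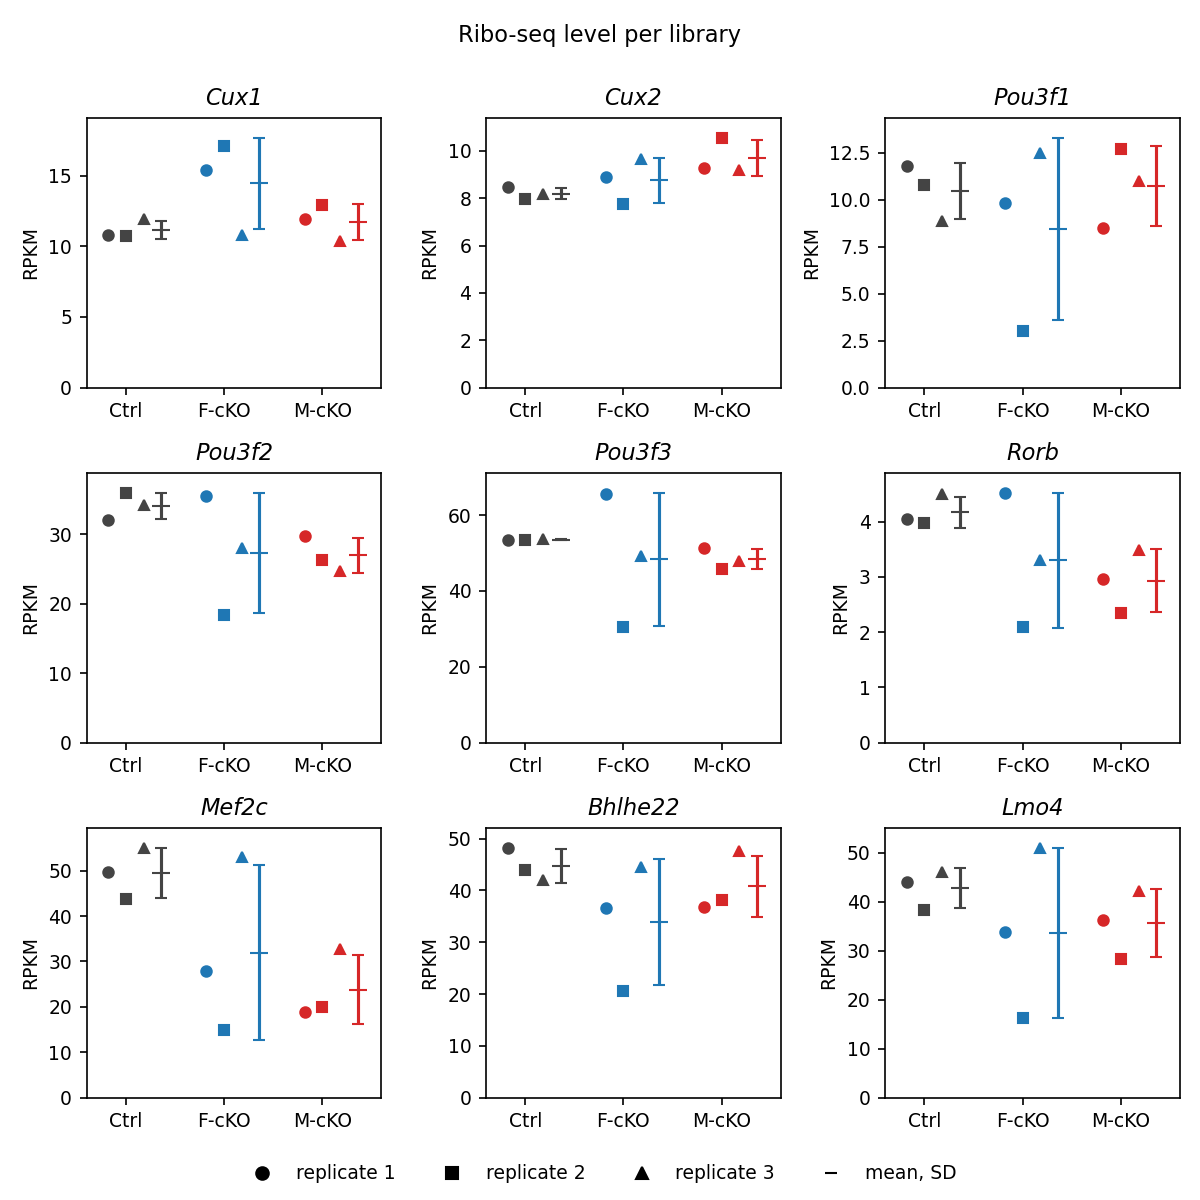
Ribo-seq level (RPKM, linear axes from 0) of the 9 genes in each library, with the mean and SD (n = 3) to the right of each group and the replicate number given by the symbol. *F*-cKO replicate 2 (squares) is the lowest library of its group by a wide margin for 7 of the 9 genes, and *Mef2c* in *M*-cKO lies below all Ctrl libraries.

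Between *M*-cKO and *F*-cKO, 0% of 14262 genes passed in Ribo-seq by edgeR (1154 at an unadjusted *P* below 0.05, and DESeq2 called 172 higher and 28 lower). The 9 genes had adjusted *P* between 0.623 and 0.988. The differences that passed in RNA-seq for *Rorb*, *Pou3f2*, *Mef2c* and *Cux1* had Ribo-seq log2 fold changes of -0.16 ± 0.28, -0.01 ± 0.21, -0.41 ± 0.43 and -0.32 ± 0.24. The difference between both assays, tested as TE, was furthest from 0 for *Pou3f2* at 0.55 ± 0.24 (unadjusted *P* = 0.0404, adjusted *P* = 0.889 by edgeR), and for *Rorb* it was 0.55 ± 0.32, for *Mef2c* 0.07 ± 0.48 and for *Cux1* -0.08 ± 0.26, none of which passed.

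The TE of *Cux2* rose in *M*-cKO, where its 2 assays moved in opposite directions. The Ribo-seq level of *Cux2* was 8.45, 7.95 and 8.19 RPKM in Ctrl, 8.88, 7.76 and 9.65 RPKM in *F*-cKO, and 9.28, 10.6 and 9.20 RPKM in *M*-cKO. The *M*-cKO libraries thus lay above Ctrl in Ribo-seq and below it in RNA-seq. Ribo-seq alone did not pass (0.26 ± 0.11, edgeR, adjusted *P* = 0.137). The test of the difference between both assays gave a TE log2 fold change of 0.52 ± 0.13 (edgeR, adjusted *P* = 0.0442), where 1.89% of 13208 genes were called higher and 1.18% lower. As a ratio of means, Ctrl had a *Cux2* TE of 0.565, *F*-cKO one of 0.693 and *M*-cKO one of 0.758. The part of the smaller *M*-cKO Ribo-seq libraries in the TE call was not tested. The call held in 7 of 20 alternatives, and leaving out any 1 of the 12 libraries other than *M*-cKO Ribo-seq replicates 1 and 3 ended it, with adjusted *P* between 0.0508 and 0.124 and log2 fold changes between 0.41 and 0.56.

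The other 8 genes showed no TE change that passed in *M*-cKO. *Pou3f1* had the largest value (0.58 ± 0.21, edgeR, adjusted *P* = 0.127), where its RNA fell and its Ribo-seq change did not pass, and *Mef2c* had a value of 0.13 ± 0.26 (edgeR, adjusted *P* = 0.810), with RNA and Ribo-seq both lower. In *F*-cKO 0% of 13225 genes passed for TE by edgeR (1228 at an unadjusted *P* below 0.05, and DESeq2 called 4 higher and 35 lower), and the 9 genes had adjusted *P* of at least 0.504, the smallest being *Rorb* (-0.72 ± 0.27). Between the knockouts 0% of 13162 genes passed for TE by edgeR (541 at an unadjusted *P* below 0.05, and DESeq2 called 16 higher and 2 lower).

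Other genes of upper-layer and callosal neurons were taken from a list of 18. In *F*-cKO RNA 5 were lower and 2 higher, and in *M*-cKO 9 were lower and 3 higher, with medians of -0.06 and -0.33 on the log2 scale. Of all genes tested, 9.57% were called lower and 11.5% higher in *F*-cKO RNA, and 14.1% and 15.5% in *M*-cKO RNA. In *M*-cKO Ribo-seq the shares were 7.50% and 7.13%. The same shares apply to the counts of the other lists below. *Inhba*, a subunit of activin, fell furthest in *M*-cKO RNA (-1.87), and *Rasgrf2*, a Ras exchange factor of upper-layer neurons, fell furthest in *F*-cKO (-1.54), followed by *Dkk3* (-0.89). Called higher were *Epha3* (0.62) and *Unc5d* (0.34) in *F*-cKO and *Cited2* (0.71) and *Plxnd1* (0.46) in *M*-cKO. In *M*-cKO Ribo-seq 5 of the 18 were lower, led by *Kitl* (-1.63) and *Inhba* (-1.40), and 1 was higher, *Mdga1* (0.58), whose TE was also higher (0.66).

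Deep-layer neuron genes were called in both directions in RNA-seq. Of 12 such genes 5 were higher and 3 lower in each knockout, with medians of 0.18 in *F*-cKO and -0.03 in *M*-cKO on the log2 scale. The higher genes were in both cases the transcription factors *Bcl11b* (0.67 in *F*-cKO and 0.87 in *M*-cKO), *Sox5* (0.88 and 0.55), *Foxp2* (0.47 and 0.57), *Tbr1* (0.55 and 0.45) and *Fezf2* (0.33 and 0.52), which specify layer V and VI neurons. The lower ones were *Crym* (-1.14 and -1.88), *Nr4a2* (-0.83 and -0.90) and *Ldb2* (-0.41 and -0.93). In *M*-cKO Ribo-seq 3 were higher (*Bcl11b* 0.95, *Foxp2* 0.96, *Sox5* 0.66) and 4 lower (*Crym* -1.85 and *Ldb2* -1.28 the furthest), with a median of -0.14 over the 12, as over the 9 genes. The plot by gene list shows both directions.

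General neuron genes and progenitor genes moved as well. Of 10 general neuron genes 4 were lower and 1 higher in *F*-cKO, among them *Stmn2* (-0.55), *Gap43* (-0.49) and *Dcx* (0.37), and 3 were lower and 3 higher in *M*-cKO, among them *Snap25* (-0.82), *Stmn2* (-0.42), *Neurod2* (0.52) and *Rbfox3* (0.27). Of 10 genes of radial glia and intermediate progenitors 8 were higher in *F*-cKO (*Mki67* 0.95, *Btg2* 0.79) and 5 in *M*-cKO (*Sox2* 0.90, *Mki67* 0.81), with 0 lower by edgeR, also at an unadjusted *P* below 0.05. Their summed level was 269.4 to 378.5 FPKM in Ctrl, 471.1 to 548.1 FPKM in *F*-cKO and 412.9 to 465.5 FPKM in *M*-cKO, while that of the 9 upper-layer genes was 371.9 to 395.1, 281.3 to 346.8 and 309.3 to 318.6 FPKM.

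**Figure D4:**
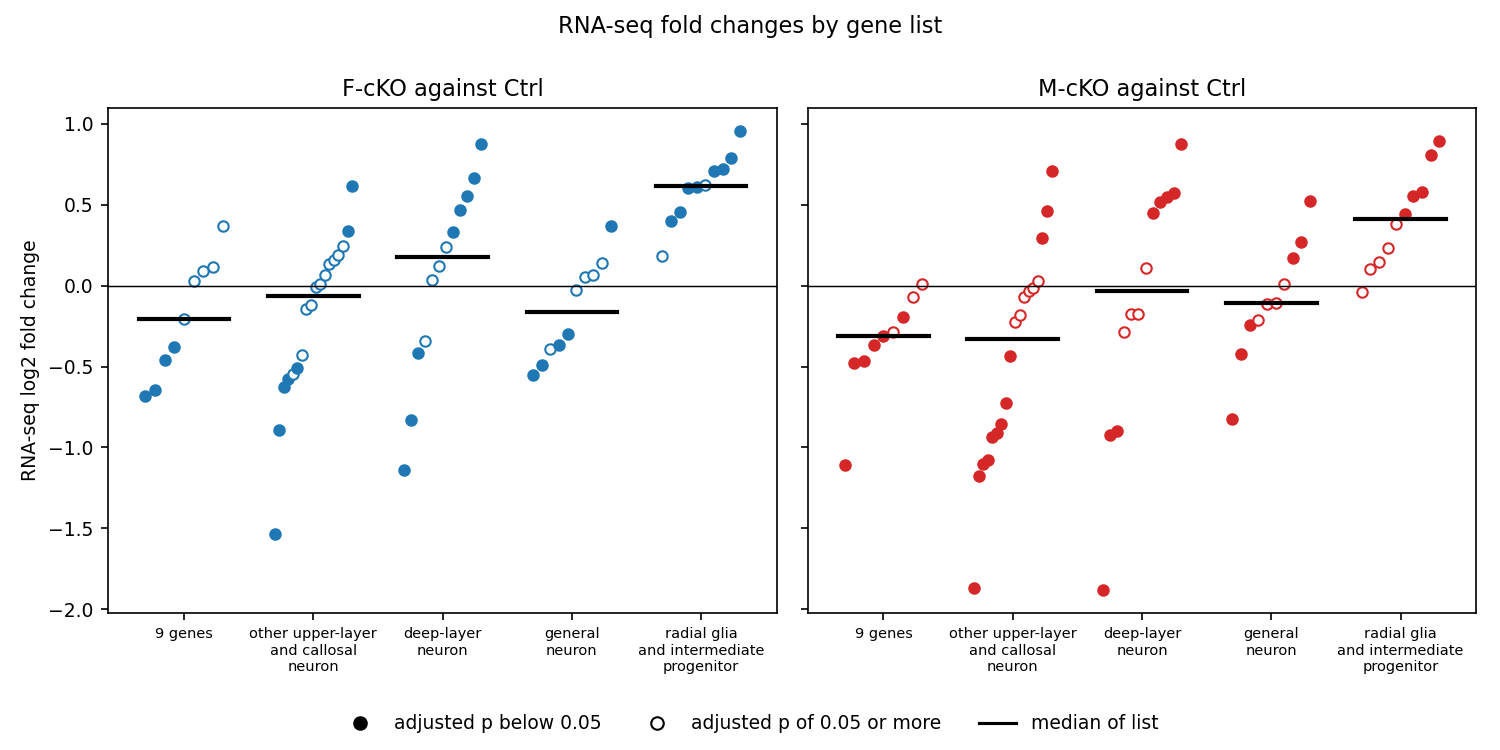
RNA-seq log2 fold change against Ctrl (y axis) of the genes of 5 lists in *F*-cKO (left) and *M*-cKO (right), 1 point per gene, filled where the adjusted *P* was below 0.05, with a line at the median of each list. The 9 genes have medians of -0.21 and -0.31, and the deep-layer list holds 5 filled points above and 3 below 0 in each knockout.

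Markers of interneurons and of tissue around the cortex also differed between groups. All 9 interneuron and ganglionic eminence genes were higher in *M*-cKO RNA (*Nkx2-1* 2.76 and *Gsx2* 1.66 the furthest) and 4 of 9 in *F*-cKO (*Nkx2-1* 1.50, *Gsx2* 0.85), with summed levels of 88.2 to 90.2 FPKM in Ctrl, 85.2 to 118.1 FPKM in *F*-cKO and 126.3 to 171.4 FPKM in *M*-cKO, and 5 of 9 were higher in *M*-cKO Ribo-seq (*Dlx6* 2.12, *Gsx2* 1.81). Of 8 striatal neuron genes 5 were higher (*Isl1* 2.80, *Ebf1* 2.40) and 2 lower (*Rgs9* -0.65, *Ppp1r1b* -0.43) in *M*-cKO, and 2 were higher in *F*-cKO (*Isl1* 1.80, *Ebf1* 1.64). Of 7 thalamus genes, 6 of them tested, 2 were higher and 2 lower in *M*-cKO (*Lhx9* 0.65, *Calb2* -0.68) and 2 higher and 1 lower in *F*-cKO (*Lhx9* 0.82, *Calb2* -0.56). Of 7 meninges genes 4 were lower in *F*-cKO (*Aldh1a2* -1.87, *Col1a2* -1.40), with summed levels of 13.8 to 26.4 FPKM in Ctrl and 3.40 to 10.7 FPKM in *F*-cKO, and 0 were called in *M*-cKO by edgeR (7.41 to 35.4 FPKM, and 0 at an unadjusted *P* below 0.05). The part of the progenitor genes and of these markers in the changes of the 9 genes was not tested.

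The genes whose RNA pattern lay closest to each of the 9 were found over the 9 RNA-seq libraries, by the root mean square difference of the log2 ratio to the Ctrl mean among 13127 genes. For *Mef2c* they were *Dlg2* and *Syt4* (0.077 and 0.086), a synaptic scaffold and a synaptotagmin. For *Lmo4* they were *Rapgef4* and *Stmn2* (0.068 and 0.072), the latter a microtubule regulator of growing axons that is in the general neuron list above. *Pou3f1* was followed most closely by *Rps6kl1* and *Dtna* (0.062 and 0.066), *Pou3f2* by *Ocel1* and *Kcnv1* (0.068 and 0.078), and *Bhlhe22* by *Pcyt2* and *Plppr2* (0.051 and 0.056). *Cux2* was nearest to *Tpm1* and *Npdc1* (0.039 and 0.041), *Cux1* to *Cntrob* and *Ncbp3* (0.036 and 0.044), and *Pou3f3* to *Drosha* and *Smap1* (0.043 and 0.045). *Rorb* had no close match, with *Fam111a* and *Rabgap1l* at 0.130 and 0.132. None of the 9 genes was among the 2 nearest to another.

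The 9 genes lie on 6 chromosomes (GRCm38.p6). *Cux1* (chr5:136248135-136567590) and *Cux2* (chr5:121857962-122050415) are long genes on chromosome 5, *Rorb* (chr19:18930609-19111196) and *Mef2c* (chr13:83504017-83667079) also span more than 100 kb, and *Lmo4* (chr3:144188530-144205255) shares chromosome 3 with *Bhlhe22* (chr3:18054325-18057514). *Pou3f1* (chr4:124657646-124660655), *Pou3f2* (chr4:22482095-22488366) and *Pou3f3* (chr1:42695768-42700210) are short genes of a single coding exon. RefSeq places non-coding genes over some of them, namely *Gm30408*, *Mir721* and *Gm16599* in *Cux1*, *Gm52785* in *Cux2*, and *Gm52043* and *Gm52044* in *Mef2c*. *Mir721* and *Gm16599* averaged 0.222 and 0.111 reads per RNA-seq library, and the others had no row that could be matched, so reads from them cannot be told from those of the overlapping gene where the counting did not use strand.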

How the data were processed

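RNA-seq (9 libraries) and Ribo-seq (9 libraries) of E15.5 mouse cortex were grouped by the genotype and replicate number of the labels. The authors aligned RNA-seq reads with HISAT2 2.0.5 and deposited a table of gene read counts. The counting tool and its use of strand are not given in the sources used here. The authors also deposited FPKM for the same RNA-seq libraries. For Ribo-seq the authors mapped fragments with TopHat2, counted them with HTSeq and deposited counts and RPKM per gene. The build in the submitters' processing notes is mm10, and DESeq2 1.14.1 is listed there. Of 54838 genes with a row of Ribo-seq counts, 40490 are blank in at least 1 of the 9 libraries and were not used. Symbols matched 54723 of 55153 RNA-seq genes, and 315 loci have no Ensembl identifier.

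Deposited counts were tested in R 4.3.3 with edgeR 4.0.16 (filterByExpr with a minimum count of 10 and a minimum total of 15, TMM scaling, quasi-likelihood test), each comparison over its own 6 libraries, with Benjamini-Hochberg adjustment over all genes and calls at 0.05. The ± after a fold change is its SE. TE was tested as the interaction of assay and genotype over 12 libraries, for genes that passed the filter in both assays. FPKM and RPKM were used as deposited for levels. Alternatives were DESeq2 1.42.0, RLE scaling, no filter, all libraries in 1 fit, the replicate number as a block, protein-coding genes only, each library left out, and, chosen after seeing the data, 2 other settings of the TE fit. The methods were tested on simulated data. Of 100 genes changed 2-fold, 75 to 80 were called in RNA-seq and 56 in *M*-cKO against Ctrl, in Ribo-seq and in TE alike. Only 6 were called in *F*-cKO against Ctrl Ribo-seq and 2 between the knockouts, with 12 and 10 for TE. A change that did not pass in those comparisons may therefore still be present.

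The labels call the replicates biological repeats, and no source used here says how many embryos a library holds. The study's methods give the Ribo-seq cortices as coming from "1 L", which is not spelled out and may mean 1 litter, so *P* values in that assay may cover only the spread within a litter. No pair of libraries was identical or within sampling noise of another (smallest chi-square per gene 4.46 in RNA-seq and 20.1 in Ribo-seq). The closest Ribo-seq pair was of different genotypes, Ctrl replicate 1 and *F*-cKO replicate 3. The closest pair of the same genotype, Ctrl replicates 1 and 2, was at 38.7. The cause was not tested. The 9 genes and all gene lists were chosen with earlier results of these data known. Named genes are the 9, the targeted genes, *Pou3f4*, up to 2 called genes per direction from each list and comparison, overlapping gene models, and the 2 genes of nearest pattern (log2 CPM, prior count 2, mean of at least 1 FPKM). *Foxp2*, *Tbr1*, *Fezf2* and *Sox5* beyond these, and *Ldb2* and *Nr4a2* where not among the furthest, were named after their values were seen. A few list genes are counted in their lists but not reported by name here.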

Additional observations from a re-analysis of the deposited data

Results flagged for a closer look

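Of the 9 genes, 4 differed between both knockouts in a direct test of *M*-cKO against *F*-cKO RNA-seq libraries (edgeR's quasi-likelihood test, adjusted over all genes), which is what brought them here. The log2 fold changes were -0.66 for *Rorb*, -0.52 for *Pou3f2*, -0.44 for *Mef2c* and -0.19 for *Cux1*, each lower in all 3 *M*-cKO libraries than in any *F*-cKO library. The first 3 were called in 11 of 11 alternatives and *Cux1* in 4. *Cux2* is listed because its RNA-seq and Ribo-seq effects in *M*-cKO differed in a test of the interaction, with a TE log2 fold change of 0.52, higher in 3 of 3 Ribo-seq libraries and lower in 3 of 3 RNA-seq libraries than in Ctrl.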

How the results depend on the processing

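With replicates left out in turn, the number of the 9 genes called in *F*-cKO RNA-seq lay between 2 and 5 (4 with all libraries, and 2 without Ctrl replicate 3). In *M*-cKO Ribo-seq it was 1, and became 3 with DESeq2, 2 with protein-coding genes only, 0 with all 9 libraries in 1 fit, and 0 to 2 with a library left out. For TE in *M*-cKO it was 1, and became 0 with all 18 libraries in 1 fit, 0 with the replicate block, 0 with the filter over both assays together (chosen after seeing the data), and 0 to 2 with a library left out. The share of all genes called can change with the setting too and is not given beside these counts. They may therefore only follow that share. *Mef2c* and *Lmo4* in *F*-cKO RNA-seq and *Mef2c*, *Lmo4*, *Bhlhe22*, *Pou3f1* and *Pou3f2* in *M*-cKO RNA-seq were called in all 11 alternatives. *Rorb* was called higher in *F*-cKO RNA-seq in 4 of 11.

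Within each assay, replicate numbers gave no sign of pairing. Deviations of same-numbered libraries correlated between -0.153 and 0.182 in RNA-seq and between -0.277 and 0.154 in Ribo-seq. For libraries of different number the ranges were -0.250 to 0.219 and -0.319 to 0.416. Whether RNA-seq and Ribo-seq libraries of the same number share tissue is not stated and was not checked. The TE test treats them as unpaired. The replicate block moved the adjusted *P* of edgeR for *Cux2* to 0.0674 in *M*-cKO RNA-seq, and its TE value to 0.51 with an adjusted *P* of 0.0570. It turned the log2 fold change of *Pou3f2* in Ribo-seq between the knockouts to 0.014 and that of *Mef2c* TE in *F*-cKO to -0.11.

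Signs also turned for values that were not called. *Pou3f1* RNA between the knockouts was 0.00156 with no filter, *Pou3f2* Ribo-seq between the knockouts was 0.0114 with protein-coding genes only, and *Bhlhe22* TE in *F*-cKO was 0.0124 with protein-coding genes only and 0.0220 with TMM within each assay. The cause was not tested. With a library left out, log2 fold changes crossed 0 for *Pou3f2* (-0.0093 to 0.073) in *F*-cKO RNA-seq, *Pou3f3* (-0.030 to 0.047) in *M*-cKO RNA-seq, and *Cux2* (-0.050 to 0.072), *Pou3f1* (-0.12 to 0.093) and *Bhlhe22* (-0.046 to 0.13) in RNA-seq between the knockouts. In Ribo-seq they crossed 0 for *Pou3f1* (-0.66 to 0.070) and *Pou3f3* (-0.35 to 0.072) in *F*-cKO, *Pou3f1* (-0.10 to 0.23) in *M*-cKO, and *Pou3f2* (-0.18 to 0.17), *Pou3f3* (-0.19 to 0.24), *Rorb* (-0.36 to 0.079), *Mef2c* (-0.72 to 0.11) and *Lmo4* (-0.20 to 0.47) between the knockouts. For TE they were *Pou3f1* (-0.24 to 0.54), *Mef2c* (-0.53 to 0.38), *Bhlhe22* (-0.27 to 0.22) and *Lmo4* (-0.14 to 0.61) in *F*-cKO, *Mef2c* (-0.18 to 0.29) in *M*-cKO, and *Cux1* (-0.27 to 0.14), *Pou3f3* (-0.049 to 0.39), *Mef2c* (-0.24 to 0.62) and *Lmo4* (-0.42 to 0.28) between the knockouts.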
